A study of Mus musculus with 9 samples.

Results

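A group of 10 genes of prohormone processing and of the granin family were followed in RNA of the mouse hypothalamus: Pcsk1, Pcsk2, Pcsk1n, Scg5, Cpe, Pam, Chga, Chgb, Scg2 and Scg3. They were chosen by gene symbol, and 10 of 10 were among the 14351 genes of the deposited table, so none was lost to the authors' filter on low values. The 5 KO libraries (replicates 2, 4, 6, 8 and 10) and 4 WT libraries (replicates 1, 3, 9 and 11) came from male mice. The study describes whole body Clic1 knockout mice on a CD-1 background and WT littermate controls, fed normal chow, whereas the sample labels give the strain as C57b/6J and carry a protocol line on adipose tissue. The age of the mice is not given in the sources used here. No label states that each library came from a separate mouse, and p-values then measure the spread between these libraries only. Replicate 10 carries conflicting labels. Its title and treatment name it WT, and its library name begins with the K of the KO libraries. It was placed with KO by that name, and results are given with it, without it and with it as WT.

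Neuropeptides such as vasopressin and oxytocin are made as larger precursors and are cut to size inside dense-core granules. The convertases encoded by Pcsk1 and Pcsk2 cut after pairs of basic residues, carboxypeptidase E (Cpe) removes the basic residues left at the end, and peptidylglycine alpha-amidating monooxygenase (Pam) converts a terminal glycine to an amide. The granins (Chga, Chgb, Scg2 and Scg3) are acidic proteins that gather in the trans-Golgi network and take part in granule formation, and several are themselves cut into peptides. In the hypothalamus, peptidergic neurons express this machinery at high levels.

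A cyclic AMP response element, the 8 bases TGACGTCA, lay upstream of the RefSeq start in 3 of the 9 genes with a RefSeq promoter sequence (GRCm38.p6, 250 bases before to 50 after the start). These were Scg2, Chgb and Pcsk1. Of all 32851 promoter sequences of this length, 1.79% held it. The element is its own reverse complement, so each match stands on both strands. Chga held the known variant TGACGTAA, present in 0.499% of the sequences when searched on both strands. The 30 bases around each element are shown 5′ to 3′ on the strand of the gene, with the element in capitals, because they mark the genes of the group that share a regulatory word and can be read against the values of these genes.
Scg2: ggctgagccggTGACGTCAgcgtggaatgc
Chgb: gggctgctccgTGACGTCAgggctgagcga
Pcsk1: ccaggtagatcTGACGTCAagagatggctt
Chga: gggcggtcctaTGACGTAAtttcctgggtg
The first base of the element lay 68 bases before the RefSeq start in Scg2 (chr1:79440076-79440105, minus strand), 72 in Chgb (chr2:132781559-132781588, plus strand), 78 in Pcsk1 (chr13:75089768-75089797, plus strand) and 44 in Chga (chr12:102554886-102554915, plus strand). In Scg2 and Chgb the gene bounds given below, from GENCODE, begin further upstream than the RefSeq start, so the element lies within those bounds. A match is a description of letters and not evidence of binding. Cpe had no entry.

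The targeted gene Clic1 lay between 0.733 and 1.93 CPM, the deposited read counts scaled to library size, in KO, with 1.43 in replicate 10, and between 3.58 and 5.52 in WT (log2 fold change -1.80, adjusted p = 0.0153 in limma). For this gene, replicate 10 lay within the range of the other KO libraries and below every WT library. Clic1 was not called with replicate 10 as WT (-1.51, adjusted p = 0.501 in limma). Across the table, limma called 41 genes at an adjusted threshold of 0.05 (87 without KO replicate 10, 5 with it as WT). Estimated totals were 5470000 to 20800000 reads per library, the largest in KO replicate 10. This library stood apart: its median Spearman correlation with the others was 0.974, against 0.990 to 0.993 for the remaining 8 libraries. All 10 hypothalamic markers listed were measured, and their sum was higher in every KO library (653 to 805 CPM) than in any WT library (587 to 631 CPM). Of the 10, 1 was called, Avp, which is itself part of the sum. KO libraries held 189 to 255 CPM of Avp, and WT libraries 96.0 to 123. The median log2 fold change of the 10 was 0.05. No sum without Avp was taken, so whether the other markers differed as a set was not tested. The sum of 6 endothelial markers ran from 193 to 219 CPM in KO and from 177 to 193 CPM in WT. The part of either sum in the results was not tested. Of 10 pituitary markers, a tissue rich in granins, 6 were in the table (Gh, Prl, Fshb and Pou1f1 were not), and their sum ranged from 37.3 to 57.7 CPM across KO and from 49.1 to 69.7 CPM across WT libraries. None of the 6 passed, their median log2 fold change was -0.68, and their part in the granin values was not tested.

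None of the 10 genes passed an adjusted p of 0.05 in limma, with 9 libraries, without KO replicate 10 or with it as WT. Over all genes, 0.286% passed with 9 libraries, 0.606% without KO replicate 10 and 0.0348% with it as WT. At an unadjusted p under 0.05, 1 of 10 genes (Scg2) was found with 9 libraries, against 6.5% of all genes, and 2 of 10 (Scg2 and Chga) without KO replicate 10, against 10.5%. With replicate 10 as WT it was 1 of 10 (Chga), against 6.65%. The mean was higher in KO for 8 of the 10 genes and lower for 2, with log2 fold changes from -0.18 to 0.31 and a median of 0.07, beside a median of 0.00 over all genes. Without KO replicate 10 the split was 5 higher and 5 lower, from -0.27 to 0.17, with a median of 0.01. Placing replicate 10 with WT gave 2 higher and 8 lower, from -0.31 to 0.06, with a median of -0.09. Fold changes are on the log2(CPM + 0.1) scale. In bulk tissue, fewer cells of a type and less RNA per cell cannot be told apart.

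**Figure D1:**
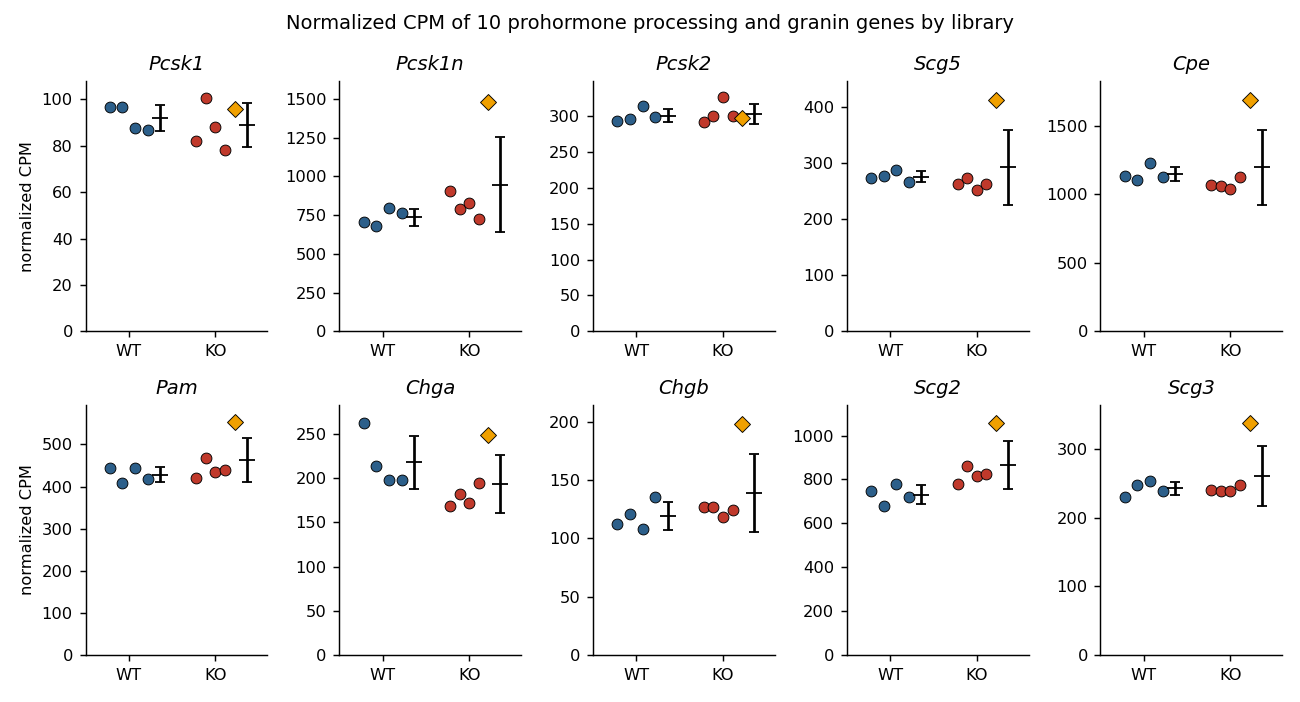
Normalized CPM (vertical axis, from 0) of each gene in the 4 WT libraries (blue) and the 5 KO libraries (red circles, and an orange diamond for KO replicate 10), with the mean and SD of each group as black marks. KO replicate 10 is the highest of the 9 libraries in 7 of the 10 genes, and the remaining KO libraries overlap the WT libraries except for Scg2 and Chga.

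Levels between genes were compared per kilobase of exon, with lengths from GENCODE mouse release 21 on GRCm38, in the WT libraries. The length was that of all annotated exons of a gene joined, such as 11892 bases for Pam and 7910 for Pcsk2, and the order depends on that choice. Cpe stood highest, at 440.4 ± 20.7 CPM per kb (SD, n = 4). It was followed by Pcsk1n at 336 ± 24.8 and Scg2 at 291 ± 17.1 CPM per kb, whose ranges overlapped. Scg5, at 176 ± 5.77, lay below both without overlap. Scg3, at 88.8 ± 3.55, and Chga, at 79.02 ± 10.98 CPM per kb, overlapped each other. Chgb, at 43.4 ± 4.50, overlapped Pcsk2, at 38.0 ± 1.16, and Pcsk2 overlapped Pam, at 36.02 ± 1.5 CPM per kb. Pcsk1 was the lowest of the 10, at 16.4 ± 0.976 CPM per kb. The inhibitor gene Pcsk1n thus stood above its convertase gene Pcsk1, and the chaperone gene Scg5 above Pcsk2, on the length-scaled level. Without length scaling, the WT mean of Pcsk1n (736 CPM) was still above that of Pcsk1 (92.0 CPM), but Pcsk2 (301 CPM) was above Scg5 (276 CPM). Together the 10 genes took 0.409% to 0.455% of the summed signal in the WT libraries, 0.431% to 0.442% in the KO libraries other than replicate 10, and 0.621% in that library.

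Pcsk1 (ENSMUSG00000021587, chromosome 13, 75089826 to 75134861, plus strand), the convertase that makes the early cuts in precursors such as proopiomelanocortin, had 82.2, 101, 88.1, 78.0 and 96.0 CPM in the KO libraries (replicates 2, 4, 6, 8 and 10, in this order throughout) and 96.9, 96.6, 87.7 and 86.9 CPM in the WT libraries (replicates 1, 3, 9 and 11, in this order). The groups overlapped, with both the highest and the lowest library in KO. The log2 fold change was -0.05 (95% interval -0.24 to 0.13, adjusted p = 0.924 in limma). Replicate 10 lay within the range of the other libraries for this gene, and without it the value was -0.08 (-0.24 to 0.08).
Pcsk2 (ENSMUSG00000027419, chromosome 2, 143546156 to 143816285, plus strand), which cuts later in the granule and completes many neuropeptides, varied the least of the 10 genes over the 5 KO and over the 4 WT libraries. KO libraries had 292, 300.0, 328, 301 and 297 CPM, and WT libraries 293, 296, 314 and 299.8 CPM. All WT values lay inside the KO range, and the coefficient of variation was 4.63% in KO and 3.05% in WT. The change was 0.01 on the log2 scale, with an interval of -0.11 to 0.13, which corresponds to -7.31% to 9.73% (adjusted p = 0.978 in limma).

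Pcsk1n (ENSMUSG00000039278, chromosome X, 7919822 to 7924410, plus strand) encodes proSAAS, a granule protein that inhibits the product of Pcsk1. KO libraries held 905, 786, 831, 724 and 1482 CPM of it, and WT libraries 708, 677, 798 and 762 CPM. Replicate 10 was at 1.83 times the mean of the other KO libraries, and KO replicates 4 and 8 lay within the WT range. The estimate of 0.31 was the largest of the 10 genes, with an interval of -0.06 to 0.68 (adjusted p = 0.803 in limma). It was 0.14 (-0.00 to 0.28) without replicate 10 and -0.06 with replicate 10 as WT.
Scg5 (ENSMUSG00000023236, chromosome 2, 113776362 to 113829121, minus strand) encodes a chaperone that the product of Pcsk2 needs to become active. KO libraries had 262, 274, 253, 263 and 412 CPM, and WT libraries 273, 277, 288 and 266 CPM. KO replicates 2, 6 and 8 were below every WT library and replicate 10 above every one. With 9 libraries the log2 fold change was 0.06 (-0.21 to 0.33), and without replicate 10 it was -0.07 (-0.16 to 0.02).

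Cpe (ENSMUSG00000037852, chromosome 8, 64592542 to 64693054, minus strand), which trims basic residues after the convertases have cut, had 1069, 1062, 1039, 1131 and 1688 CPM in the KO libraries and 1134, 1107, 1228 and 1127 CPM in the WT libraries. KO replicates 2, 4 and 6 lay below every WT library, and replicate 10 was the highest of all. The direction depended on that library. The log2 fold change was 0.03 (-0.24 to 0.31, adjusted p = 0.972 in limma) with it and -0.10 (-0.19 to 0.00, adjusted p = 0.477 in limma) without it.
Pam (ENSMUSG00000026335, chromosome 1, 97795114 to 98095646, minus strand), whose product forms the amide that vasopressin and oxytocin carry, had 420.2, 468, 434, 440.0 and 554 CPM in KO and 444, 409, 443 and 417 CPM in WT libraries. KO replicates 2, 6 and 8 lay within the WT range and replicates 4 and 10 above it. The estimate was 0.11 (-0.07 to 0.28) with replicate 10 and 0.04 (-0.06 to 0.14) without it. For comparison, Avp, whose precursor passes through this pathway, ranged from 189 to 255 CPM across KO and from 96.0 to 123 CPM across WT libraries (log2 fold change 0.90, adjusted p = 0.0027 in limma). The groups overlapped and Avp did not pass with replicate 10 as WT (0.58, adjusted p = 0.687 in limma).

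Among the granins, Scg2 and Chga stood at opposite ends. Scg2 (ENSMUSG00000050711, chromosome 1, 79434669 to 79440120, minus strand) encodes secretogranin II, the precursor of secretoneurin. KO libraries held 780.5, 861, 814, 824 and 1057 CPM of it, and WT libraries 746, 679, 780.4 and 718 CPM. Each KO library was above each WT library, although the lowest KO value, 780.5 CPM, and the highest WT value, 780.4 CPM, were almost equal. KO averaged 867 ± 109.9 CPM (SD, n = 5), against 731 ± 43.0 CPM (SD, n = 4) for WT. The log2 fold change was 0.24 (standard error 0.09, 95% interval 0.05 to 0.43). Its unadjusted p was 0.017 and its adjusted p 0.648 in limma, where it ranked 374 of 14351 genes by p. The exact permutation test gave p = 0.0159, the smallest that 5 against 4 libraries allow, before any correction for the 10 genes or the table. Scg2 was 1 of 10 genes without overlap, against 3.41% of all genes.
Without replicate 10, Scg2 was at 820 ± 33.1 CPM (SD, n = 4) in KO libraries, with a log2 fold change of 0.17 (0.06 to 0.27, unadjusted p = 0.00388, adjusted p = 0.192 in limma). With replicate 10 as WT it was 0.06 (-0.18 to 0.30), and the groups overlapped.

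Chga (ENSMUSG00000021194, chromosome 12, 102554969 to 102565028, plus strand), which encodes chromogranin A, had 168, 182, 172, 194 and 249 CPM in KO and 262, 213, 198 and 198 CPM in WT libraries. The 4 KO libraries other than replicate 10 were below every WT library, and replicate 10 fell between WT replicates 1 and 3. With 9 libraries the groups overlapped, and the log2 fold change was -0.18 (-0.44 to 0.08, unadjusted p = 0.16, adjusted p = 0.843 in limma). Without replicate 10, KO averaged 179 ± 11.7 CPM (SD, n = 4), against 218 ± 30.3 CPM (SD, n = 4) for WT, with a log2 fold change of -0.27 (-0.44 to -0.11, unadjusted p = 0.0033, adjusted p = 0.182 in limma). The exact permutation test then gave p = 0.0286, the smallest that 4 against 4 allow, and Chga and Scg2 were the 2 of 10 genes without overlap, against 6.06% of all genes. With replicate 10 as WT the value for Chga was -0.31 (-0.52 to -0.11, adjusted p = 0.577 in limma), and Chga was the 1 of 10 genes without overlap, against 3.07% of all genes. Chga kept its lower mean in KO in each of the 17 alternatives tried, from -0.33 to -0.09. The value closest to 0 came without WT replicate 1, the highest library at 262 CPM (-0.09, adjusted p = 0.989 in limma). Scg2 (0.06 to 0.28) and Pcsk1 (-0.10 to -0.01) also kept their direction in all 17.

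Chgb (ENSMUSG00000027350, chromosome 2, 132781278 to 132795079, plus strand), which encodes chromogranin B, had 126.5, 127, 118, 124 and 198 CPM in KO and 112, 121, 108 and 136 CPM in WT libraries. The KO libraries other than replicate 10 lay within the WT range. The log2 fold change was 0.20 (-0.10 to 0.50, adjusted p = 0.847 in limma), and 0.06 (-0.08 to 0.20) without replicate 10.
Scg3 (ENSMUSG00000032181, chromosome 9, 75643189 to 75684056, minus strand), whose product binds chromogranin A and cholesterol-rich granule membrane, had 241, 239, 239, 248 and 338 CPM in KO and 231, 248, 253 and 239.8 CPM in WT libraries. KO replicates 2, 4, 6 and 8 varied by 1.73% around their mean, inside the WT range. Without replicate 10 the log2 fold change was -0.01 (-0.10 to 0.09), the closest to 0 of the 10 genes, and with it 0.09 (-0.13 to 0.31).

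**Figure D2:**
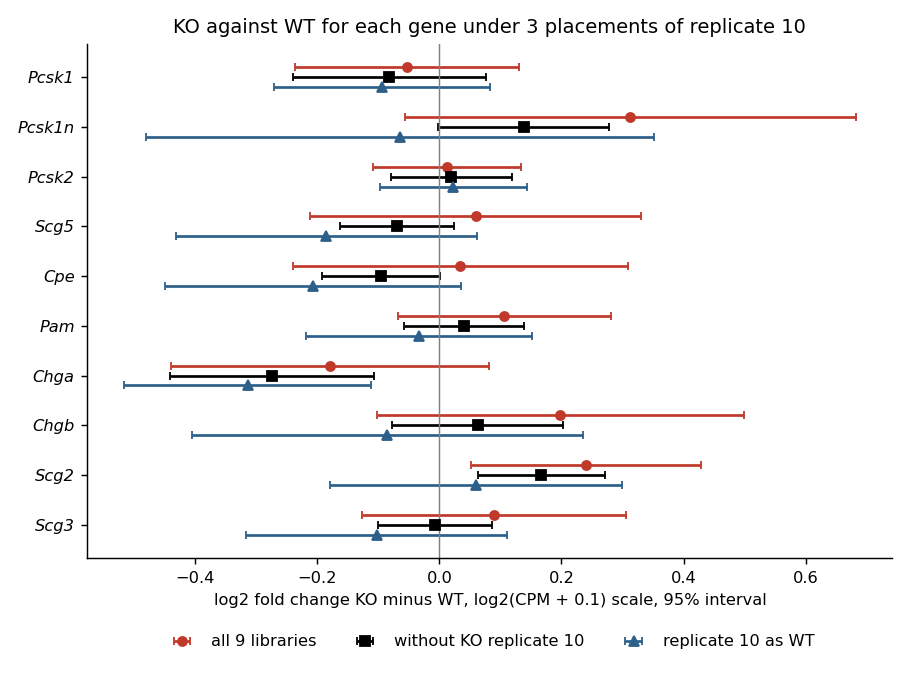
Log2 fold change KO minus WT on the log2(CPM + 0.1) scale (horizontal axis) with its 95% interval from limma for each gene, with all 9 libraries (red), without KO replicate 10 (black) and with replicate 10 as WT (blue). The interval of Scg2 lies above 0 with all libraries and without replicate 10, and that of Chga lies below 0 without replicate 10 and with it as WT.

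The genes that hold the full response element did not share a direction in the means of the 9 libraries. Scg2 and Chgb had log2 fold changes of 0.24 and 0.20 and Pcsk1 of -0.05, and Chga, with the variant, of -0.18. Chgb was at 0.06 without replicate 10 and -0.085 with it as WT, and the interval of Pcsk1 ran from -0.24 to 0.13. The directions of Chgb and Pcsk1 are therefore not settled by these values. None of these passed the adjusted threshold. The genes overlapping the 10 in the annotation, among them Eras opposite Pcsk1n and antisense transcripts opposite Pcsk2, were not in the table. Whether the counting used strand is not given in the sources used here.

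KO replicate 10 was far above the other KO libraries in most of these genes. It was at 1.57 times their mean in Cpe and in Scg5, 1.6 times in Chgb, 1.40 times in Scg3, 1.39 times in Chga, 1.29 times in Scg2 and 1.26 times in Pam. The convertases went with the rest of the KO libraries, at 1.10 times in Pcsk1 and 0.974 times in Pcsk2. This library exceeded all 8 others in 7 of 10 genes, and in 34.7% of the 5028 genes averaging 50 CPM or more. Among those 5028 genes, 2.19% deviated upwards in it as far as Pcsk1n, 5.09% as far as Chgb, 5.61% as far as Cpe and 16.4% as far as Scg2. The SD of the deviations over those genes was 0.41 (log2) in replicate 10 and 0.13 to 0.15 in the other KO libraries. The 10 pan-neuronal markers listed summed to 7807 CPM in replicate 10, 6806 to 6947 CPM in the other KO and 6775 to 7424 CPM in the WT libraries, and 6 oligodendrocyte markers to 3481 CPM, 3638 to 3943 CPM and 3709 to 4550 CPM. In 7 of 11 marker lists the sum of replicate 10 was above or below those of all 8 remaining libraries. Thalamic markers summed to 493 CPM in it, against 401 to 442 CPM in the others, and striatal markers to 98.6 CPM against 110.1 to 122 CPM. Its sums were also the highest for astrocyte (4771 CPM) and ependymal markers (50.9 CPM) and the lowest for microglial markers (182 CPM). The part of depth or of these cell types in the high values was not tested.

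**Figure D3:**
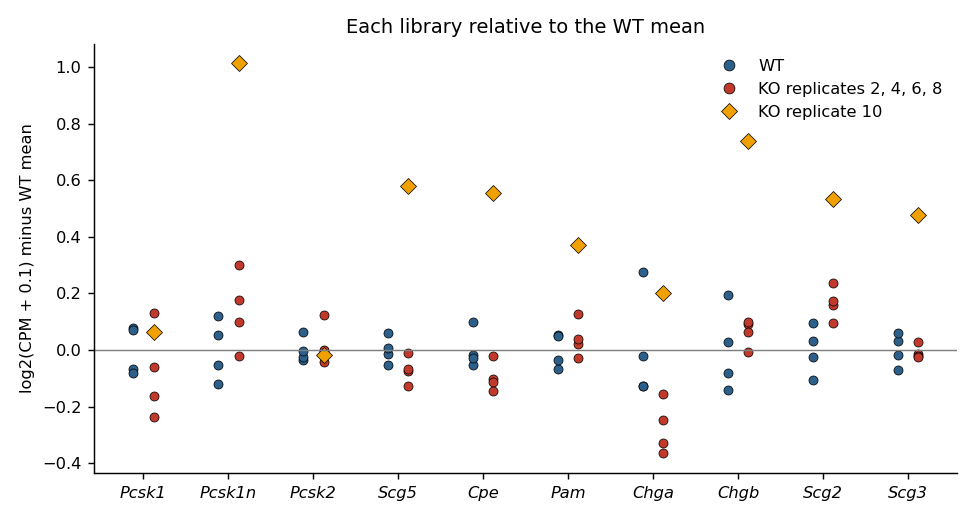
Log2(CPM + 0.1) of each library minus the mean of the 4 WT libraries (vertical axis) for each gene, with WT in blue, KO replicates 2, 4, 6 and 8 in red and KO replicate 10 as an orange diamond. Replicate 10 lies up to 1.01 above the WT mean, in Pcsk1n, and near 0 in Pcsk1 and Pcsk2, and the red points of Chga lie below the blue ones.

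Ratios within a library do not depend on how libraries were scaled. A set of 5 ratios was compared with a two-sided exact permutation test, adjusted over the 5 by the Benjamini-Hochberg method, and none passed. The ratio of Scg3 to Chga was 1.43, 1.31, 1.39, 1.28 and 1.36 in the KO libraries and 0.882, 1.16, 1.28 and 1.21 in the WT libraries. Only KO replicate 8 and WT replicate 9 overlapped. The mean log2 ratio was higher in KO by 0.27 (exact permutation test, p = 0.0317, adjusted p = 0.159), and by the same amount without replicate 10 (p = 0.0571, exact permutation test, adjusted p = 0.143). With replicate 10 as WT it was 0.21 (exact permutation test, p = 0.0794, adjusted p = 0.132). The size rested in part on WT replicate 1, which had the lowest ratio, and without that library the difference was 0.15 (exact permutation test, p = 0.0714, adjusted p = 0.357). Replicate 10, high in both genes, was at the middle of the KO libraries in this ratio.
The ratio of the inhibitor gene Pcsk1n to Pcsk1 was 7.81 to 15.4 in KO and 7.01 to 9.1 in WT libraries. The mean log2 ratio was higher in KO by 0.37 (exact permutation test, p = 0.0794, adjusted p = 0.198), and by 0.22 without replicate 10. The difference was 0.03 with replicate 10 as WT (exact permutation test, p = 0.873). Scg5 to Pcsk2 was 0.771 to 1.39 in KO and 0.888 to 0.936 in WT libraries, a log2 difference of 0.05 (exact permutation test, p = 0.952) that became -0.09 without replicate 10. Pcsk1 to Pcsk2 differed by -0.07 (exact permutation test, p = 0.46) and Cpe to Pam by -0.07 (exact permutation test, p = 0.429). Without replicate 10, Cpe to Pam was 2.27 to 2.57 in KO and 2.55 to 2.77 in WT libraries, and the difference was -0.14 (exact permutation test, p = 0.0571, adjusted p = 0.143).

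**Figure D4:**
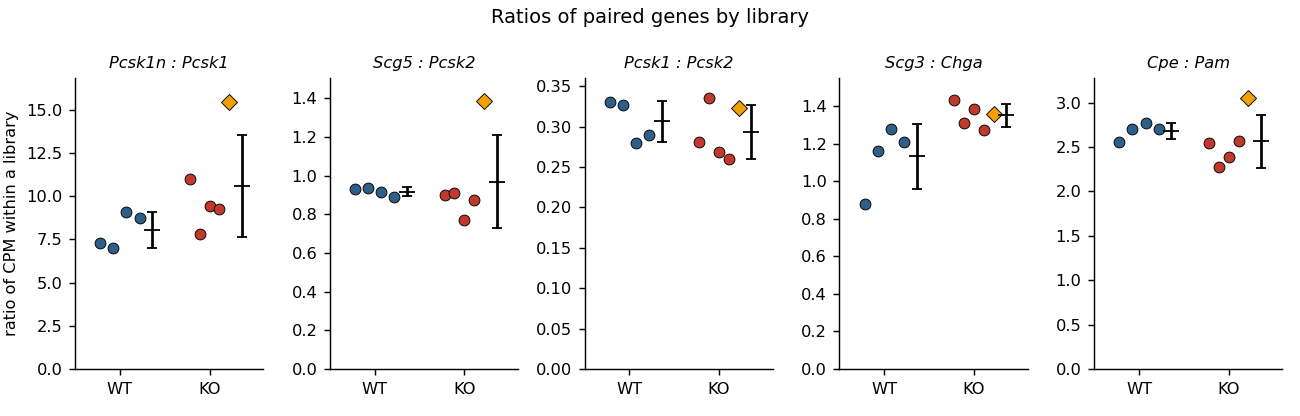
Ratio of the CPM of paired genes within each library (vertical axes, from 0) in WT (blue) and KO libraries (red circles, and an orange diamond for KO replicate 10), with mean and SD in black. Scg3 to Chga lies at 1.28 to 1.43 in KO and 0.882 to 1.28 in WT libraries. Scg5 to Pcsk2 is highest in KO replicate 10, at 1.39, and lowest in KO replicate 6, at 0.771.

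Likeness of profile was measured as the SD over libraries of the log2 ratio of a pair of genes, among the same 5028 genes. Scg5 and Cpe were each other's nearest among the 10 genes, with an SD of 0.05 over the 9 libraries and also over the 8 without KO replicate 10. Scg2 was nearest to Pam, at 0.08 and 0.07. Many genes outside the group were nearer. Among the genes compared, Cpe ranked 14 in nearness to Scg5 over 9 libraries and 144 over 8, and Scg5 ranked 6 and 55 to Cpe. In the same way, Pam ranked 9 and 22 to Scg2, and Scg2 ranked 142 and 447 to Pam. Over the 8 libraries, Chga was the farthest of the other members for 8 of the other 9 genes, with an SD of 0.32 against Pcsk1n and 0.23 against Pcsk2. Over all 9 libraries it was the farthest for 3 genes (Pcsk1n, Scg2 and Scg3). Over the table, the nearest genes were Vstm2a for Pcsk1 (SD 0.05 with 9 and 8 libraries), Ube2v1 for Pcsk2 (0.02 and 0.01) and Nadk2 for Scg3 (0.02 and 0.02). For the other 7 genes the nearest gene changed when replicate 10 was left out.

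The other genes of the pathway were grouped into 7 lists of 97 genes. Of the list of other convertases, which also held the protease cathepsin L (Ctsl), 7 of 8 were measured and none passed an adjusted p of 0.05 in limma. Their log2 fold changes ran from -0.06 (Pcsk6) to 0.05 (Pcsk4), with a median of 0.03. Of 12 other trimming and modifying enzymes 10 were measured and none passed, from -0.19 (Cpm, 12.4 ± 1.98 CPM in KO and 14.1 ± 1.96 in WT) to 0.37 (Cpxm1, 6.67 ± 1.26 and 5.29 ± 1.71 CPM), with a median of 0.00. None of 9 further granule proteins passed, between -0.14 in Slc18a2, the vesicular monoamine transporter, and 0.13 in Ptprn2, a granule membrane protein, with a median of 0.01. Ptprn2 was highest in replicate 10, at 461 CPM, with WT libraries at 322 to 346 CPM.
Of 18 genes for granule biogenesis 18 were measured and none passed, with a median of 0.07, 12 higher and 6 lower. The median was 0.0059 without replicate 10, 9 higher and 9 lower, and -0.06 with it as WT, 4 higher and 14 lower. Ica1 had the highest value, 0.16 (0.02 without replicate 10), and Arfip1 the lowest, -0.22 (unadjusted p = 0.0391, adjusted p = 0.757 in limma). The 9 genes of the vacuolar ATPase, the pump that acidifies granules, had a median of -0.08 and none passed. Atp6v0c, the lowest of this list, ranged from 282 to 479.8 CPM across KO and from 492 to 563 CPM across WT libraries, without overlap. Over all genes, 3.41% did not overlap. The log2 fold change of Atp6v0c was -0.28 (adjusted p = 0.79 in limma), and its lowest value was that of replicate 10. Without that library its log2 fold change was -0.13. Atp6v1e1 went the other way, at 0.09, and -0.07 without replicate 10. None of 14 peptidases that degrade peptides passed, with a median of -0.05, and Mme (neprilysin) was at -0.22 and Thop1 at 0.14. Of 27 neuropeptide precursors, the cargo of the granules, 23 were measured and 1 passed, Avp, which was higher in KO. The median of the precursors was -0.03, and Nts, at -0.28, was the lowest of those with a mean of at least 5 CPM. Beside these medians, that over all genes was 0.00. Among the peptidases the median became 0.01 with replicate 10 as WT, and in the list of other convertases it was -0.01 without replicate 10 and -0.08 with it as WT. The further granule proteins were at -0.01 and -0.05 under the same 2 settings. Another 2 genes, outside the naming rule, had an unadjusted p under 0.05 and were picked after their values were seen. They were Qpctl, at 0.33 (adjusted p = 0.707 in limma), and Atp6v1b2, at -0.20 (adjusted p = 0.715 in limma).

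**Figure D5:**
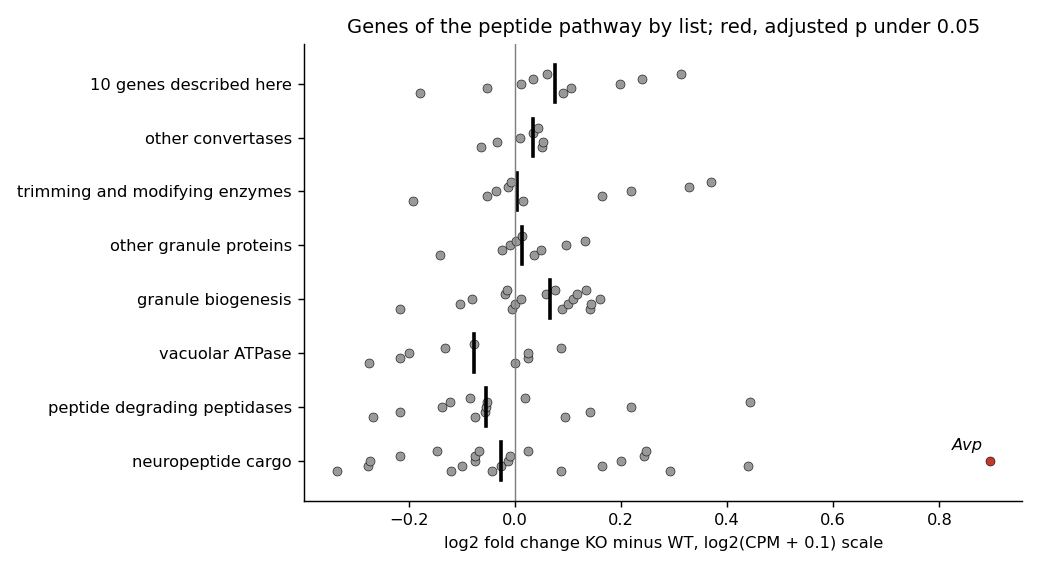
Log2 fold change KO minus WT with 9 libraries (horizontal axis) of each measured gene, by list, with the median of each list as a black bar and genes that limma called at the adjusted threshold of 0.05 in red. Avp, at 0.90, is the red point, and the 10 genes described here lie between -0.18 and 0.31.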

How the data were processed

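RNA of the hypothalamus was sequenced. Per the labels and the study's methods, the authors checked reads with FastQC 0.11.8, trimmed them with Trimmomatic 0.38, aligned them to GRCm38.p6 with STAR 2.5.1a, estimated gene counts with RSEM 1.3.0 and Ensembl release 98, kept genes with at least 1 CPM in at least 5 samples and applied TMM scaling with edgeR. The deposited values are a signal in normalized CPM per library. The authors' table of fold changes and p-values was used only to name genes, and 1 column that matched no sample was not used.

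Values were transformed to log2(CPM + 0.1), which understates changes of low genes. They were fitted over 14351 genes with limma 3.58.1 in R 4.3.3 (condition as the only term, intensity trend), with Benjamini-Hochberg adjustment. The study used limma-voom on counts, and the trend replaces voom here because the deposited values used here are not counts. Exact permutation tests used scipy 1.17.1. In simulated data with 200 of 14351 genes changed, at the spread of these 5 and 4 libraries, the fit recovered 0% of changes of 0.25, 43% of changes of 0.5 and 86% of changes of 1 on the log2 scale. Of the genes called, 5.5% at changes of 0.5 and 8.51% at changes of 1 were unchanged ones. Noise was drawn for each gene separately, so a library that departs in many genes together, like KO replicate 10, was not simulated. Estimated read totals came from the steps between values up to 2.5 CPM, of which 81.3% to 86.5% per library were whole reads within 0.03, so no count test was run. Genes named were the 10 members, Clic1, the passing or otherwise lowest and highest gene of each pathway list (mean of at least 5 CPM), and the nearest genes by profile. The members and lists were chosen with earlier results of these data known.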

Additional observations from a re-analysis of the deposited data

Results flagged for a closer look

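In 7 of 32 groups of values tested, a library lay far from the others of its group, against 1.6 expected by chance (about 1 in 20), and 6 of the 7 were KO replicate 10. The figure of 1.6 treats the 32 groups as separate. The same libraries recur in them and the ratios share genes with them, so it is not a firm reference. KO replicate 10 also exceeded all 8 others in 34.7% of the 5028 genes averaging 50 CPM or more. The values of that library were 1482 CPM in Pcsk1n, 412 CPM in Scg5, 1688 CPM in Cpe, 338 CPM in Scg3, 198 CPM in Chgb and 1.39 in the ratio of Scg5 to Pcsk2, each above the remaining KO libraries. The seventh was Pcsk2 in KO replicate 6, at 328 CPM, where the remaining KO libraries ran from 292 to 301 CPM. KO replicate 10 is also the library whose labels conflict, and what sets it apart was not tested.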

How the results depend on the processing

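The study describes WT littermate controls, but the labels used to group the libraries name no litter, and KO and WT share no replicate number. No paired analysis was therefore possible. None of the 10 genes passed an adjusted p of 0.05 in limma under any of the 17 alternatives, where the smallest adjusted p of any of them was 0.0896 (Chga, with array weights). The number of all genes past the threshold, 41, became 27 with a mean of at least 5 CPM, 135 with array weights and 5 with replicate 10 as WT, and ranged from 18 (without WT replicate 1) to 87 (without KO replicate 10). Of the 23 neuropeptide precursors measured, 0 passed with replicate 10 as WT, in place of 1. In that fit 5 of the 23 had an unadjusted p under 0.05 in limma, against 6.65% of all genes. Of these 5, 1 was higher in KO, Avp at 0.58, and the rest were lower.

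Of 170 values for the 10 genes under alternatives, 157 kept their direction and 13 did not. With replicate 10 as WT, the log2 fold change turned to -0.064 in Pcsk1n, -0.19 in Scg5, -0.21 in Cpe, -0.034 in Pam, -0.10 in Scg3, -0.085 in Chgb, -0.046 in Ptprn2, -0.12 in Ica1, -0.21 in Atp6v1e1 and -0.19 in Thop1, and to 0.049 in Atp6v0c. With array weights it was -0.039 in Scg5, -0.066 in Cpe and -0.033 in Atp6v1e1, and with quantile normalization -0.018 in Cpe. As each library was left out in turn, values crossed 0 in Pcsk2 (-0.016 to 0.033), Scg5 (-0.070 to 0.11), Cpe (-0.096 to 0.079), Scg3 (-0.0073 to 0.12), Pcsk4 (-0.055 to 0.16), Slc18a2 (-0.25 to 0.0048), Atp6v1e1 (-0.069 to 0.15) and Thop1 (-0.025 to 0.20). For the ratio of Scg5 to Pcsk2 the log2 difference was -0.21 with replicate 10 as WT and ran from -0.089 to 0.12 as each library was left out. Causes were not tested. Clic1, a gene of few reads, had an adjusted p of 0.0893 in limma without WT replicate 1, 0.0826 without WT replicate 3, 0.0702 without WT replicate 9 and 0.501 with replicate 10 as WT.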
